A study of Mus musculus with 6 samples.

Results

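The transcripts described here are those that GENCODE M21, the mouse gene annotation on GRCm38, types as nonsense-mediated decay (NMD) transcripts and that had at least 20 estimated counts in 3 or more of 6 RNA-seq libraries. Of 7185 NMD transcripts listed, 2901 met that rule, and they belonged to 2237 genes. They were thus selected on annotation and on estimated counts, the same counts that enter the comparisons below. All listed transcript types together gave 45452 transcripts by the same count rule, among them 11041 retained-intron and 26635 protein-coding transcripts. The libraries came from macrophages sorted out of digested hearts of C57BL/6J mice, and the cells descended from donor haematopoietic progenitors. By their labels 3 libraries are Tet2 KO, of Tet2 deficient macrophages, and 3 are Tet2 WT, of Tet2 sufficient macrophages. The labels give neither the age of the mice nor the deleted exons nor the genotype of the host's other cells, and the genotype names below stand for the libraries so labelled. Tet2 is an enzyme that oxidises methylated cytosine in DNA, and Tet2 mutations in blood stem cells are among those that drive clonal haematopoiesis. The question was whether the part of each gene's RNA that is carried by its NMD transcript differed between these genotypes.

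Nonsense-mediated decay is a surveillance pathway of the cytoplasm that removes messenger RNAs whose reading frame ends too early. A stop codon that lies well upstream of an exon junction leaves a junction complex on the RNA after the first round of translation, and the helicase Upf1, with Upf2, Upf3b and the kinase Smg1, then marks that RNA for cleavage and decay. Many genes, those of splicing factors in particular, splice part of their RNA into such transcripts and in this way limit their own messenger RNA, so the level of an NMD transcript reflects both how much is made and how fast it is removed. Expression data do not separate these.

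The annotated structures had the features by which the pathway reads an early stop. The annotation type selected these transcripts, so such features describe the set and are no finding from these libraries. Of the 2900 transcripts with an annotated stop codon, 2894 had it at least 50 bases before the last exon junction. The median distance from the stop to that junction was 450.5 bases, with a median of 3 junctions behind the stop and a single one in 543 transcripts. The stop codon was TGA in 1621, TAA in 663 and TAG in 616. In 1415 transcripts the stop lay in a coding exon of the gene's main coding transcript, meaning its protein-coding transcript with the highest mean abundance, and in 997 it lay in an intron of that transcript. A further 217 shared the stop with a coding transcript. For 2009 transcripts the start codon was that of the main coding transcript, so that the splice difference before the stop could be read directly. Skipping of 1 or more whole exons was the only kind of difference in 510 of these, a shortened exon in 273, an extended exon in 151 and an extra exon in 70. In 647 the stop lay in sequence that the coding transcript removes as intron, 252 had differences of several kinds and 106 had none before the stop. Where the stop lay in a coding exon, the net difference was not a multiple of 3 bases in 1054 of 1058 transcripts (99.6%). With the same start codon, a new stop inside shared coding sequence needs a shifted frame, so this fraction was largely fixed in advance.

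The sequences of 9 transcripts on which the results below turn show how small such a splice difference can be. Each is given 5′ to 3′ beside the main coding transcript of its gene, as the last 12 shared coding bases in lower case and the bases after the splice forms part in capitals (GENCODE M21 transcripts, GRCm38). For Zranb2-208 and Ctsh-202 the printed bases end at the early stop codon.
Rpe-205: ctgcacctggatGCACCCTGCTCTTCAGGG
Rpe-201: ctgcacctggatGTAATGGACGGGCATTTT
Serpinf1-208: agcagctctgagAACTTCGAGTCAAATCCA
Serpinf1-201: agcagctctgagGGCTCCCCAGTCCCGGAC
Wdr43-204: gaaatattaaacTGCTTCAAACTAAGAATG
Wdr43-201: gaaatattaaacAAAGTGCTTCAAACTAAG
Sft2d2-202: tgctcagtgctgTACCGTCTTCCTCATGGG
Sft2d2-201: tgctcagtgctgGGGACTCTTCTGCTGTGG
Ppia-201: gtctccttcgagGTCGGCTGTTTGCAGACA
Ppia-202: gtctccttcgagCTGTTTGCAGACAAAGTT
H2-Eb1-205: gagactccagacCGCGTGCGGCTTCTGGAA
H2-Eb1-203: gagactccagacCATGGTTTTTGGAATACT
Ctsh-202: tggatgaaacagTGGCATTGA
Ctsh-201: tggatgaaacagCATCAAAAGACGTACAGC
Srsf6-201: acggaagccgcaTGACCAATGGGGCTGAGG
Srsf6-203: acggaagccgcaGTGGTGGAGGTGGATACA
Zranb2-208: gatgtggtcgagACAACTGA
Zranb2-203: gatgtggtcgagAAAAGACAACTGAGGCCA

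Against its coding partner, Wdr43-204 lacked 4 bases of an exon, Zranb2-208 lacked 5 and H2-Eb1-205 lacked 53, while Ppia-201 carried 5 extra bases. Whole exons were missing from Sft2d2-202 (86 bases), Ctsh-202 (106 bases) and Serpinf1-208 (156 and 199 bases). Rpe-205 held a 20-base exon that Rpe-201 does not have and lacked an exon of 80 bases and 11 bases of another. The shifted frame then ran into the early stop, shown here in capitals behind the last 8 codons before it.
Rpe-205: gggagatatgcacatgatggtgtcTAG
Serpinf1-208: ggatcctcacgggcaaccctcgagTAG
Wdr43-204: ttaaactgcttcaaactaagaatgTAA
Sft2d2-202: gctgaagcagctgaagcgcatgttTGA
Ppia-201: agacagcagaaaactttcgagctcTGA
H2-Eb1-205: ggacacggtgtgcagacacaactaTGA

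This closeness bears on the measurement. The authors' program, kallisto, assigns reads by runs of 31 bases (31-mers) and divides reads that several transcripts share by a model. A median member had 35 31-mers that no other listed transcript holds, out of a median length of 1926 bases. 385 members had no 31-mer of their own, and 1019 had 1 to 30. A new splice junction adds at most 30 such runs. Rpe-205, Sft2d2-202 and Ppia-201 had 29 of their own, Ctsh-202 had 27 and Gm49322-202 had 1, so the reads that set their shares came from a short stretch.

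Library totals ran from 37349505 to 55771087 estimated counts. The labels do not say whether libraries of a genotype came from different mice, so p-values here speak of the spread between libraries, which could be technical. CPM are counts scaled to the library total, which edgeR's TMM factors adjust for single genes but not for summed markers. Tet2 itself had 81.1, 82.5 and 78.2 CPM in the Tet2 KO libraries against 57.5, 76.0 and 60.8 CPM in Tet2 WT (log2 fold change 0.32 ± 0.14 SE, edgeR quasi-likelihood adjusted p = 0.159). Its total was thus not lower in the libraries labelled Tet2 KO, and without the deleted exons a gene total does not check the genotype. No NMD transcript of Tet2 was listed. Macrophage markers were abundant in all libraries, at 32537 to 38810 CPM in Tet2 KO and 20634 to 28082 CPM in Tet2 WT, and 13 of 16 were called higher in Tet2 KO. Fibroblast markers stood at 2283 to 4242 CPM in Tet2 KO and 17686 to 32949 CPM in Tet2 WT, and 20 of 20 were called lower in Tet2 KO, with a median log2 fold change of -3.01. Summed endothelial markers (64.9 to 90.1 CPM against 116 to 199) and pericyte and smooth muscle markers (30.96 to 58.7 against 115 to 189) were also lower in each Tet2 KO library, with 1 of 6 called lower in each list. The median log2 fold change of the single genes was 0.22 for the endothelial list, so there only the sum was lower. It was -0.82 for the pericyte and smooth muscle list. Neutrophil markers (59.8 to 67.9 CPM against 38.9 to 52.9) and erythroid markers (325 to 717 against 34.2 to 262) were higher in each, with 1 of 2 and 1 of 5 tested called higher. B cell markers overlapped (442 to 826 CPM against 355 to 457) with 2 of 4 called higher, and cardiomyocyte and T and NK cell markers overlapped with 0 called. In bulk RNA, fewer cells of a type and less RNA per cell cannot be told apart.

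For most genes the NMD transcript was a minor product. The median member made up 7.68% of its gene's summed TPM (transcript abundance corrected for length and scaled to the library), with quartiles of 3.47% and 17.5%, against a median of 26.2% for protein-coding transcripts. 1023 members stayed under 5% and 148 reached 50% or more. Of the library's whole TPM, the members held 2.30%, 2.20% and 2.14% in Tet2 KO and 1.92%, 2.06% and 2.12% in Tet2 WT, so that the 3 Tet2 KO libraries lay above the Tet2 WT ones by 0.181 percentage points on average. Much of this gap sat in few transcripts: without the 5 members of highest TPM the values were 1.61%, 1.40% and 1.51% against 1.40%, 1.41% and 1.54%, which overlapped, and the gap was 0.060. The H2-Eb1 member alone held 0.406%, 0.427% and 0.353% in Tet2 KO and 0.224%, 0.312% and 0.263% in Tet2 WT. Retained-intron transcripts were also higher in every Tet2 KO library than in any Tet2 WT library, at 6.84% to 7.40% against 6.16% to 6.80%.

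The share of a gene carried by its NMD transcript changed in few cases. Of 2874 members in genes with more than 1 listed transcript, limma on the log2 ratio of the transcript to the rest of its gene called 2 at an adjusted p under 0.05, where 0.0621% of all 43475 transcripts tested were called. Rpe-205 was called higher and Gm49322-202 lower in Tet2 KO, beside 0.023% and 0.0391% of all transcripts. At an unadjusted p under 0.05 there were 210 members (7.31%), of which 127 were higher and 83 lower in Tet2 KO, beside 8.43% of all transcripts tested (3.98% higher and 4.45% lower). The shares of the groups did not overlap in 207 members that were higher and 173 that were lower, 13.2% of the members, beside 14.4% of all transcripts (6.48% higher and 7.91% lower). A share near the background is no result about NMD transcripts as a type. The median difference was 0.02 on the log2 scale, with quartiles of -0.34 and 0.40, beside -0.04 for all transcripts tested, -0.02 for protein-coding and -0.09 for retained-intron transcripts. Of the 1821 members that had 20 counts in all 6 libraries, and so did not pass through 1 genotype, 104 had an unadjusted p under 0.05 (5.71%), 71 of them higher (3.90%) and 33 lower (1.81%), beside 6.93% of the 30510 transcripts of any type with such counts (3.47% higher and 3.45% lower). With a pseudocount of 1 TPM in place of 0.1, 26 members were called (0.905%), 22 higher and 4 lower, beside 1.02% of all transcripts. The edgeR usage test called 7 of 2829 (0.247%), beside 0.338% of all. With any single library left out, 0 were called.

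**Figure D1:**
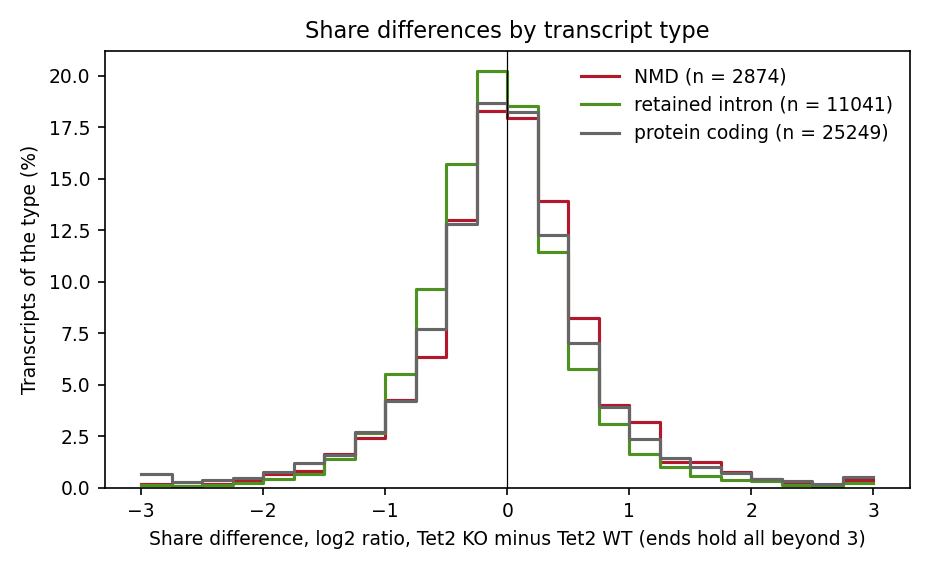
Distribution of the share difference (x axis, log2 ratio of a transcript to the rest of its gene, Tet2 KO minus Tet2 WT; y axis, percent of the transcripts of each type) for 2874 NMD, 11041 retained-intron and 25249 protein-coding transcripts. The 3 curves largely coincide, with medians of 0.02, -0.09 and -0.02, and the outermost bins hold all values beyond 3.

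Rpe encodes ribulose-phosphate 3-epimerase, an enzyme of the pentose phosphate pathway. Rpe-205 (GRCm38 chromosome 1, 66700907 to 66718019, plus strand) made up 28.1%, 13.0% and 31.5% of the gene's TPM in Tet2 KO and 0%, 0% and 0.202% in Tet2 WT. Its estimated counts were 108, 72.0 and 209 against 0, 0 and 0.993. Because the transcript reached 20 counts only in the Tet2 KO libraries, the count rule already fixed the direction for it, so the values are a description. The log2 ratio differed by 6.02 ± 0.51 (SE; limma adjusted p = 0.0373, 0.00011 to 0.273 over 14 alternatives, of which 9 lost the call). The size of this difference depends on the pseudocount, with 3.07 at 1 TPM and 8.67 at 0.01 TPM, because the transcript was listed at or next to 0 in Tet2 WT. The gene total of Rpe did not move with it (log2 fold change -0.07 ± 0.13, edgeR adjusted p = 0.779): Rpe stood at 22.7 to 28.1 TPM against 22.9 to 26.6 TPM. The main coding transcript Rpe-201 was at 15.9, 15.4 and 17.2 TPM against 23.3, 18.3 and 19.0 TPM, lower in every Tet2 KO library. Leaving out Tet2 KO replicate 1, 2 or 3 gave an adjusted p of 0.168, 0.0621 and 0.112, and leaving out Tet2 WT replicate 1, 2 or 3 gave 0.212, 0.126 and 0.134, none of which passes. The gene overlaps Kansl1l on the opposite strand, outside the span of Rpe-205, as Ppp1r7, Hnrnpu and Ndufa3 below overlap a neighbour outside their NMD transcript. The spans of Srsf2-204, Hnrnph3-204, Dcp1a-211, Eps15-208 and 6430550D23Rik-203 do overlap a gene of the opposite strand (Mettl23, Rufy2, Cacna1d, Gm12749 and Cep250). Whether the libraries kept strand is not stated, so reads from exons that such a pair shares could not be told apart.

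Gm49322 is annotated over the same-strand genes Adat3 and Scamp4, and Gm49322-202 (chromosome 10, 80606021 to 80615784, plus strand) was named because it was called, since its gene fell short of the 2 TPM asked of the others. It made up 41.5%, 41.2% and 29.0% of the gene in Tet2 KO and 100% in each Tet2 WT library, where Gm49322-201, the coding transcript, was listed at or next to 0. The difference was -4.26 ± 0.28 (limma adjusted p = 0.0291), and 9 of 15 alternatives lost the call. It was -1.36 with a pseudocount of 1 TPM and -7.59 with 0.01 TPM. With any 1 of the 6 libraries left out the adjusted p lay between 0.0621 and 0.212. At 0.782 to 1.60 TPM for the whole gene, and with reads shared with Adat3 and Scamp4, this division is uncertain.

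A further 5 members that were higher and 6 that were lower in Tet2 KO, taken by smallest p, did not pass the adjusted threshold. The rule that chose them asked for shares that do not overlap between the genotypes, so their separation is no observation. They are given as values, and the plot of shares by library shows them beside the called pair.

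**Figure D2:**
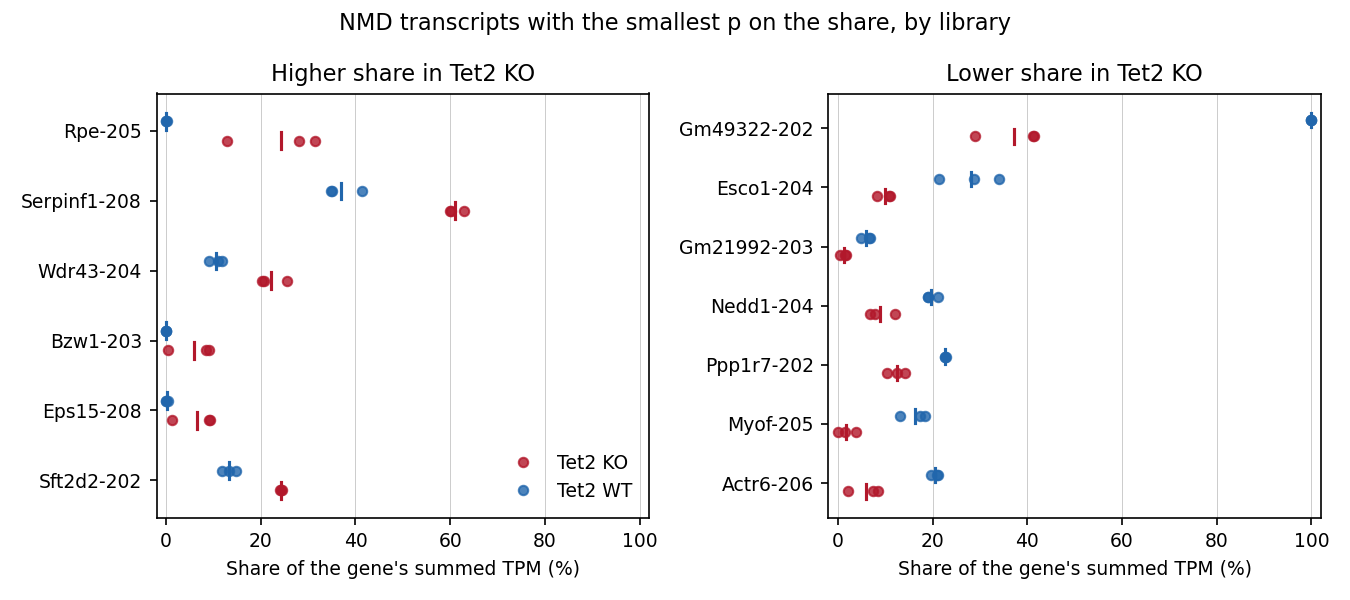
Share of the gene's summed TPM (x axis, percent) held by 13 NMD transcripts in each library, Tet2 KO in red and Tet2 WT in blue, with points for libraries and vertical bars for means of 3. All but Gm49322-202 were chosen by a rule that asked for genotypes that do not overlap, and for Rpe-205, Bzw1-203 and Eps15-208 the Tet2 WT points lie at or close to 0.

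Serpinf1 encodes pigment epithelium-derived factor, a secreted serpin. Serpinf1-208 (chromosome 11, 75410064 to 75417996, minus strand) held 60.3%, 62.9% and 59.9% of the gene in Tet2 KO and 34.8%, 41.3% and 35.0% in Tet2 WT (1.41 ± 0.22, limma adjusted p = 0.157). The gene total fell by 1.68 ± 0.18 on the log2 scale (edgeR adjusted p = 0.000308), with 111 to 134 TPM in Tet2 KO against 264 to 401 TPM. The NMD transcript itself was at 80.6, 70.0 and 70.3 TPM against 140, 109 and 127 TPM, while the coding transcript Serpinf1-201 was at 31.5, 20.2 and 29.0 TPM against 208, 111 and 168 TPM. Fibroblast markers and the summed endothelial and pericyte markers were lower in the same libraries, at the CPM values given above. Their part in this difference was not tested. With a pseudocount of 1 TPM the share was called (limma adjusted p = 0.0234, 0.0234 to 0.490 over 15 alternatives).

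Sft2d2 encodes a membrane protein related to yeast Sft2, which acts in vesicle transport at the Golgi. Sft2d2-202 (chromosome 1, 165175871 to 165194321, minus strand) held 24.5%, 24.3% and 24.2% of the gene in Tet2 KO and 14.8%, 11.8% and 13.3% in Tet2 WT. The Tet2 KO libraries lay close together. Its share difference was 1.06 ± 0.22 (limma adjusted p = 0.287, 0.0818 to 0.539 over 15 alternatives). On its own counts it rose, with 1474, 2025 and 2257 in Tet2 KO against 890, 846 and 860 in Tet2 WT (log2 fold change 1.34 ± 0.13, edgeR adjusted p = 0.0058, and at most 0.0347 in 11 alternatives). The gene total rose by less (0.45 ± 0.12, edgeR adjusted p = 0.0292), and the coding Sft2d2-201 was at 46.1, 41.3 and 47.6 TPM against 37.5, 43.0 and 41.6 TPM, which overlapped.

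Wdr43 encodes a factor of small ribosomal subunit assembly. Wdr43-204 held 25.6%, 20.7% and 20.3% in Tet2 KO and 11.8%, 9.17% and 11.0% in Tet2 WT (1.24 ± 0.25, limma adjusted p = 0.264), with 236 31-mers of its own. The gene total was 19.4 to 30.3 TPM against 26.7 to 30.6 TPM and was not called. Bzw1 encodes a regulator of translation initiation, and Bzw1-203 held 9.05%, 0.469% and 8.51% in Tet2 KO against 0 or nearly 0 in all Tet2 WT libraries. Eps15 encodes an endocytic adaptor, and Eps15-208 held 9.28%, 1.16% and 9.06% against 0%, 0% and 0.372%. In both, Tet2 KO replicate 2 lay far below the other Tet2 KO libraries, and the limma adjusted p was 0.276 for Bzw1-203 and 0.286 for Eps15-208. Bzw1-203 passed the count rule through Tet2 KO libraries only, and Eps15-208 through 3 Tet2 KO libraries and 1 Tet2 WT library. The count rule thus favoured this direction. The edgeR usage test, which works on counts, called both, but for members selected in this way that call is no support.

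Of the 6 with lower shares, Esco1-204 had the smallest p. Its gene encodes an acetyltransferase that acts on cohesin. It held 11.0%, 8.30% and 10.7% of its gene in Tet2 KO and 34.0%, 21.4% and 28.8% in Tet2 WT (-1.75 ± 0.31, limma adjusted p = 0.191), and no 31-mer is its own. With a pseudocount of 1 TPM Esco1-204 was called (limma adjusted p = 0.0468, 0.0468 to 0.497 over 15 alternatives). Ppp1r7 encodes a regulatory subunit of protein phosphatase 1. Ppp1r7-202, with 208 31-mers of its own, held 14.3%, 12.6% and 10.5% against 22.6%, 22.8% and 22.6% (-1.03 ± 0.24, limma adjusted p = 0.331), and its stop lay in an intron of the coding transcript. The gene total of Ppp1r7 was not called (edgeR adjusted p = 0.487).

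Myof encodes myoferlin, a membrane repair protein, and Myof-205 held 1.46%, 3.87% and 0% in Tet2 KO against 13.2%, 18.4% and 17.4% in Tet2 WT. Actr6 encodes an actin-related protein of a chromatin remodeller, and Actr6-206 held 8.50%, 7.49% and 2.09% against 21.1%, 20.9% and 19.8%. Nedd1 encodes a centrosomal protein that recruits gamma-tubulin, and Nedd1-204 held 7.81%, 6.74% and 12.1% against 19.1%, 19.0% and 21.2%. In Gm21992, a gene model that overlaps the splicing genes Rbm14 and Rbm4 on the same strand, Gm21992-203 held 1.51%, 1.73% and 0.498% against 6.54%, 4.80% and 6.75%. Limma adjusted p values for these 4 lay between 0.260 and 0.334. With a pseudocount of 1 TPM, limma called Myof-205 (adjusted p = 0.0319, 0.0319 to 0.618 over 14 alternatives) and Actr6-206 (adjusted p = 0.0499, the lowest of its 14 alternatives). Actr6-206 and Gm21992-203 reached 20 counts in Tet2 WT libraries only, and Myof-205 and Nedd1-204 in 1 Tet2 KO library, so the count rule favoured this direction. Their counts were low, 11.8 to 40.7 for Nedd1-204 and 3.28 to 55.3 for Actr6-206.

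Some of the most abundant members held overlapping shares of genes that differed in level. H2-Eb1 encodes a chain of the class II antigen-presenting molecule. H2-Eb1-205 (chromosome 17, 34305926 to 34316199, plus strand) was the member of highest TPM, with 4063, 4267 and 3526 TPM in Tet2 KO against 2235, 3123 and 2632 TPM. Its share was 43.9%, 48.6% and 43.3% against 44.9%, 47.1% and 46.1%, which overlapped (-0.05 ± 0.21, limma adjusted p = 0.966). The gene total rose by 0.74 ± 0.17 (edgeR adjusted p = 0.0158), and the transcript's own difference of 0.69 ± 0.17 did not pass (edgeR adjusted p = 0.0832). Ctsh encodes the lysosomal protease cathepsin H, and Ctsh-202 followed the same course: 48.4%, 46.1% and 47.9% against 46.0%, 46.3% and 48.6% of a gene whose total rose by 0.84 ± 0.19 (edgeR adjusted p = 0.0148). Fcgr1 encodes the high-affinity receptor for IgG, a macrophage marker. Fcgr1-202 held 41.3%, 48.4% and 38.4% against 40.1%, 39.2% and 44.3% of a gene that rose by 0.76 ± 0.16 (edgeR adjusted p = 0.01).

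**Figure D3:**
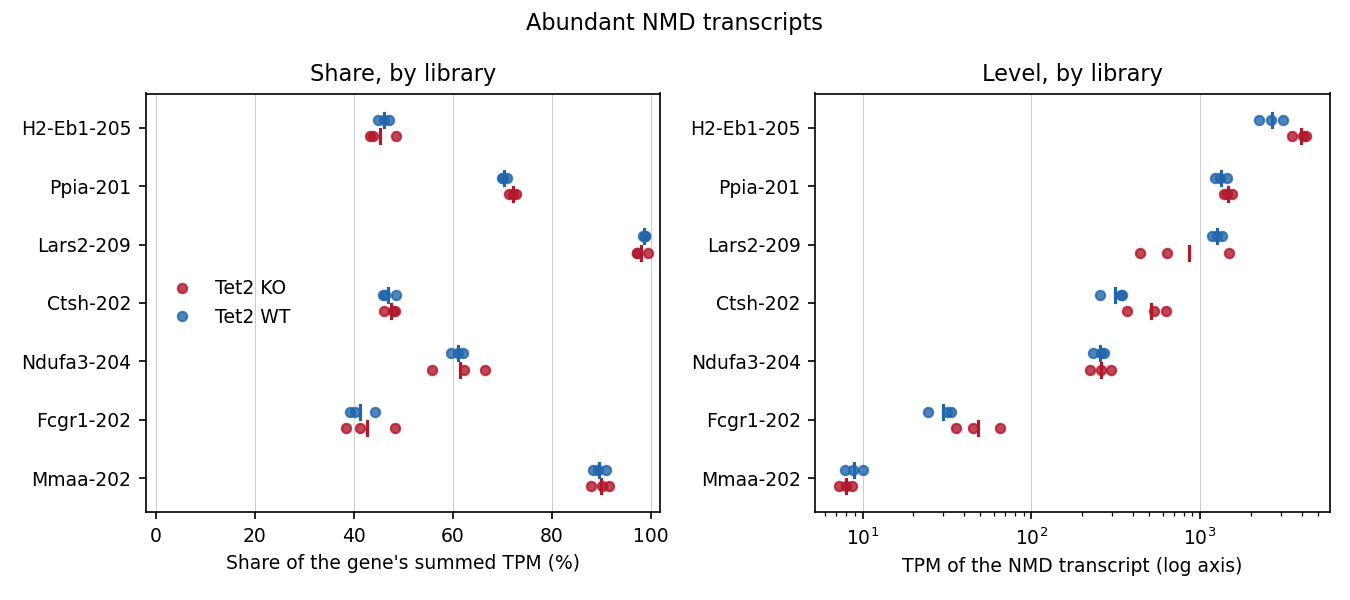
Left, share of the gene's summed TPM (percent) and right, TPM on a log axis, of 7 abundant NMD transcripts in each library, Tet2 KO in red and Tet2 WT in blue, with points for libraries and vertical bars for means of 3. H2-Eb1-205, Ctsh-202 and Fcgr1-202 are higher in level in every Tet2 KO library while their shares overlap, and Lars2-209 spreads widely in level among the Tet2 KO libraries.

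Ppia encodes cyclophilin A, a peptidyl-prolyl isomerase found in every cell. Ppia-201 was listed with 72.8%, 72.2% and 71.3% of the gene in Tet2 KO and 70.1%, 69.9% and 70.9% in Tet2 WT, which did not overlap but did not pass the test (0.13 ± 0.21, limma adjusted p = 0.891). The coding Ppia-202 was at 352 to 413 TPM against 355 to 409 TPM. Lars2 encodes mitochondrial leucyl-tRNA synthetase, and Lars2-209 was listed with 97.2% to 99.4% of the gene in all libraries. Its level was 441, 1491 and 639 TPM in Tet2 KO against 1255, 1343 and 1174 TPM, so that Tet2 KO replicate 2 stood above the other Tet2 KO libraries. Ndufa3 encodes a subunit of respiratory complex I, and Ndufa3-204 held 62.3%, 66.5% and 55.7% against 61.1%, 59.7% and 62.1%, with no 31-mer of its own.

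The members of highest share in genes of at least 2 TPM were Lars2-209, given above, and Gm45140-202, Gm21988-201 and Mmaa-202. Gm45140-202 held 97.1% to 100% and Gm21988-201 97.7% to 100% of genes that each list 2 transcripts, and both models overlap other genes on the same strand, Rab43 and Isy1 in the first case and 0610010K14Rik and Rnasek in the second. Mmaa encodes a mitochondrial chaperone of vitamin B12 metabolism. Mmaa-202 held 91.6%, 87.9% and 90.3% in Tet2 KO and 90.9%, 89.4% and 88.4% in Tet2 WT, with 401 31-mers of its own, while the coding Mmaa-201 was at 0.733 to 1.31 TPM.

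Splicing regulators supplied 99 members from 60 genes. Their median share was 5.10%, 0 were called on the share, and 5 had an unadjusted p under 0.05 (4 higher, 1 lower), a fraction of 5.05% beside 7.31% of all members. The groups did not overlap in 6 that were higher and 7 that were lower, 13.1% beside the 14.4% of all transcripts. None of the 60 host genes was called by edgeR on its total. The largest shares were those of Hnrnpu, Srsf2, Srsf6, Zranb2, Khdrbs1 and Hnrnph3, genes of RNA-binding proteins that choose splice sites or bind nascent RNA.

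**Figure D4:**
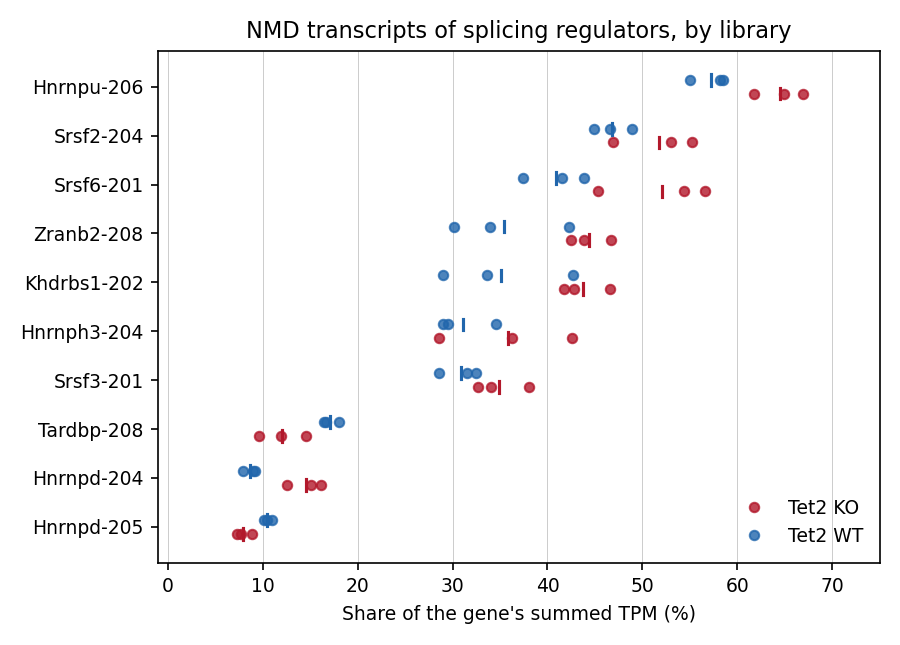
Share of the gene's summed TPM (x axis, percent) held by 10 NMD transcripts of splicing regulators in each library, Tet2 KO in red and Tet2 WT in blue, with points for libraries and vertical bars for means of 3. Srsf6-201 and Hnrnpu-206 are higher in every Tet2 KO library than in any Tet2 WT library, Srsf2-204 overlaps, and the pair from Hnrnpd lies in opposite order. Members of Hnrnpd, Tardbp and Srsf3 are shown only where the genotypes do not overlap, so their separation is no observation.

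Srsf6-201, which carries 152 bases more than the coding transcript before its stop, held 56.6%, 45.4% and 54.4% in Tet2 KO and 43.8%, 41.6% and 37.4% in Tet2 WT, without overlap (0.65 ± 0.26, limma adjusted p = 0.583). The coding Srsf6-203 stood at 24.8, 23.4 and 24.5 TPM against 30.9, 30.5 and 31.2 TPM, also without overlap, and the gene total differed by -0.03 ± 0.12 (edgeR adjusted p = 0.91). Hnrnpu-206 held 67.0%, 61.7% and 65.0% against 55.0%, 58.5% and 58.2% (0.44 ± 0.22, limma adjusted p = 0.638). Zranb2-208 held 42.5%, 43.9% and 46.7% against 30.1%, 33.9% and 42.2%, apart by a narrow margin. In Srsf2-204, from the gene of an SR protein that is itself mutated in clonal haematopoiesis, the shares were 53.0%, 47.0% and 55.2% against 44.9%, 46.6% and 48.9% and overlapped. Khdrbs1-202 (41.7% to 46.6% against 29.0% to 42.7%) and Hnrnph3-204 (28.6% to 42.5% against 29.0% to 34.6%) overlapped as well. None of these 6 passed the adjusted threshold.

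Some further members of this list were chosen after their values were seen. Hnrnpd encodes AUF1, a protein that binds AU-rich RNA. Hnrnpd-204 held 12.6%, 16.2% and 15.1% in Tet2 KO and 9.16%, 7.91% and 9.02% in Tet2 WT (0.83 ± 0.25, limma adjusted p = 0.465), whereas Hnrnpd-205 held 7.26%, 8.89% and 7.73% against 11.0%, 10.4% and 10.1%. Both divide 1 gene, so their shares are not independent, and Hnrnpd-204 has no 31-mer of its own. Tardbp encodes TDP-43, which represses its own messenger RNA, and Tardbp-208 held 9.60%, 14.6% and 11.9% against 16.4%, 18.02% and 16.7%. Srsf3-201 held 34.0%, 32.7% and 38.1% against 28.5%, 31.5% and 32.5%.

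The other lists held few members. Ribosomal protein genes gave 12 members, macrophage genes 12 and the NMD machinery 3, and in each of these lists 0 had an unadjusted p under 0.05. Of 14 members from translation factors 1 did: Eif2a-207, from the gene of an alternative initiation factor and chosen after its values were seen, held 3.37%, 8.24% and 2.40% in Tet2 KO and 17.7%, 13.0% and 16.2% in Tet2 WT (-1.98 ± 0.48, limma adjusted p = 0.364). The 12 macrophage members came from 9 genes, of which 6 were called higher on their totals and 0 lower. Among them Tyrobp-203, from the gene of the adaptor DAP12, held 0.858% to 1.08% against 0.666% to 0.993%. Nfkb1-207, from the gene of the NF-kappa-B subunit p50, held 12.5%, 23.9% and 12.5% against 22.6%, 28.5% and 23.7%.

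The genes listed for the machinery showed no difference called by edgeR. All 34 genes of the machinery list were tested, edgeR called 0 in either direction, beside 16.2% of all 16406 genes (6.11% higher and 10.1% lower), and their median log2 fold change was 0.10. An unadjusted p under 0.05 was found for 4, beside 28.9% of all genes, and DESeq2 called 3 (8.82%), beside 21.1% of all genes. Upf1, the central helicase, had 47.4, 75.7 and 62.2 CPM in Tet2 KO against 70.4, 62.8 and 64.9 CPM (-0.10 ± 0.17, edgeR adjusted p = 0.771). Smg1, the kinase that phosphorylates Upf1, was at 50.7, 72.2 and 64.4 CPM against 64.6, 75.4 and 63.3 CPM. Smg6, the endonuclease, was at 26.7, 32.6 and 25.7 CPM against 32.3, 32.0 and 31.7 CPM. The bridging factor Upf2 was at 16.7, 17.2 and 14.3 CPM against 11.7, 15.1 and 13.6 CPM, and the junction-complex reader Upf3b was at 11.3, 13.1 and 13.99 CPM against 15.8, 16.1 and 15.8 CPM, without overlap (-0.32 ± 0.17, edgeR adjusted p = 0.258). The 4 with an unadjusted p under 0.05, Foxred2, Nbas, Smg9 and Ruvbl2, are named after their values were seen, and edgeR called none. Foxred2 was on the list but has no established part in NMD. Foxred2 was at 36.7, 34.8 and 50.6 CPM against 17.4, 27.1 and 29.8 CPM (0.72 ± 0.22, edgeR adjusted p = 0.0587). Nbas was at 12.7, 15.3 and 14.5 CPM against 26.2, 18.6 and 18.9 CPM (-0.58 ± 0.19, edgeR adjusted p = 0.0651). Ruvbl2, an ATPase, differed by 0.32 ± 0.13 (edgeR adjusted p = 0.154). Smg9, a partner of Smg1, was at 31.2, 31.8 and 31.4 CPM against 23.9, 24.6 and 23.2 CPM (0.40 ± 0.13, edgeR adjusted p = 0.0657).

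Machinery genes themselves gave 3 members. Smg5-202 held 19.0%, 9.43% and 13.4% of its gene in Tet2 KO and 11.6%, 10.2% and 14.7% in Tet2 WT. Dcp1a-211, from a decapping factor gene, held 6.35%, 7.12% and 5.84% against 3.19%, 6.47% and 6.38%. Magohb-202, from the gene of an exon junction complex subunit, was listed at 0 in 3 libraries and at 12.3% to 15.3% in the others, which were of both genotypes. All 3 overlapped between the genotypes.

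Members called on abundance came mostly from genes called in the same direction. EdgeR called 39 of 2901 members on their own counts, 16 higher and 23 lower in Tet2 KO, beside 3.41% of all 45452 transcripts tested (0.614% higher and 2.8% lower). For 33 of the 39 the host gene was called in the same direction, for 5 it was not called, and for Antxr1-202 it was called in the opposite direction. A gene's total includes the transcript's own counts, so this agreement was partly fixed in advance. Gm42878-201 and Gm49378-201 are each the only listed transcript of their gene, so there it was fixed wholly. In 15 of the 39, 3 higher and 12 lower, the transcript reached 20 counts in libraries of 1 genotype only, so the count rule had fixed the direction. The other 24 were 13 higher and 11 lower. Only Rpe-205 was called on the share as well. Of the host genes, 204 were called higher and 129 lower, 14.9% of 2237, beside 16.2% of all genes (6.11% higher and 10.1% lower), while limma on log2(TPM + 1) called 70 higher and 154 lower, beside 14.1% of all genes. EdgeR called 169 host genes when Tet2 WT replicate 1 was left out (78 higher, 91 lower) and 199 for Tet2 KO replicate 3 (88 higher, 111 lower). These were 7.55% and 8.9% of the host genes, beside 8.84% and 10.9% of all genes. Of the 415 members in called genes, 0 were called on the share and 44 had an unadjusted p under 0.05 (10.6%), beside 13.4% of the 7736 transcripts of any type tested in called genes. Over the 1821 members with 20 counts in all libraries, Spearman's rho across transcripts was 0.53 between the log2 fold changes of transcript and gene and -0.14 between share difference and gene. Transcripts are not independent replicates, and both measures share the libraries and the gene's reads.

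**Figure D5:**
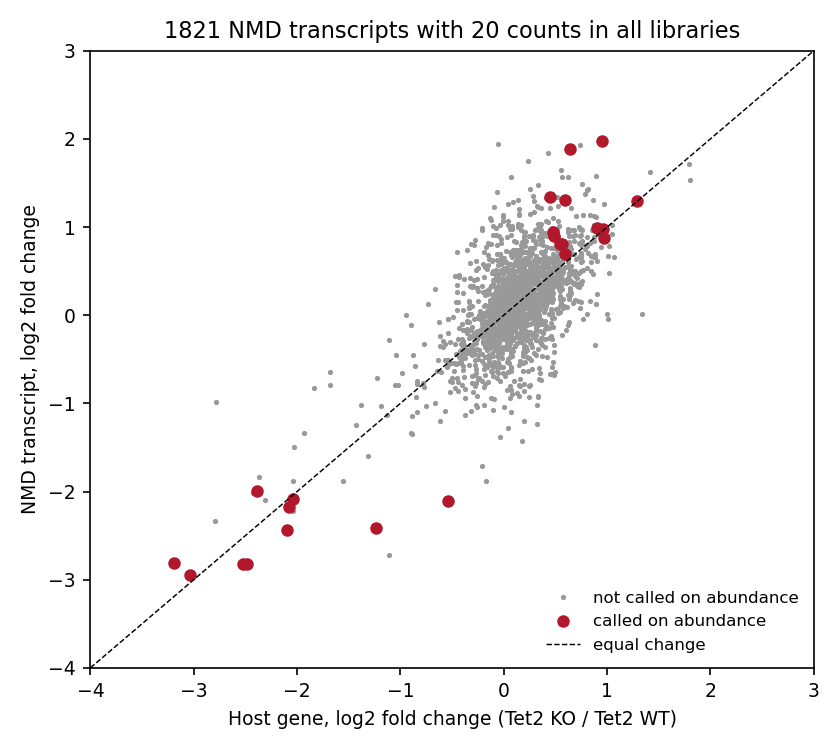
Log2 fold change (Tet2 KO over Tet2 WT) of 1821 NMD transcripts (y axis) against that of their host genes (x axis), with the dashed line marking equal change and red points marking transcripts called on abundance. The called transcripts have the sign of their gene's estimate, from -2.95 for Gpm6b-212 to 1.98 for Ifi209-202, and Fas-204, Ifi209-202, Cyp4f16-204, Acbd4-202 and Sft2d2-202 lie away from the line.

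The members called on abundance that are described next were chosen after their values were seen. Oas1g belongs to the antiviral oligoadenylate synthetase family, and Oas1g-203 had 1196, 1397 and 1459 counts in Tet2 KO against 641, 523 and 745 in Tet2 WT (1.30 ± 0.20, edgeR adjusted p = 0.0183), and its gene rose by 1.29. Its share was 57.2%, 52.6% and 55.3% against 53.5%, 53.4% and 55.2%, which overlapped. Oasl2-205, from a related gene, rose by 0.87 at 46.1% to 47.4% of its gene in Tet2 KO and 44.3% to 47.7% in Tet2 WT. Cxcl16-202, from a chemokine gene, rose by 0.80, Ifnar1-203, from the type I interferon receptor, by 0.95 and Ifi209-202, from an interferon-inducible gene, by 1.98. Lilr4b-213 and Lilr4b-204, from an inhibitory leukocyte receptor, rose by 0.70 and 1.30. Neutrophil and erythroid markers were higher in the same libraries, as were macrophage markers, and their part in these rises was not tested. Oas1g and Lilr4b have close relatives, so the division of their reads is uncertain. How similar the Oasl and class II genes are to their relatives was not measured. The edgeR adjusted p of Oas1g-203 was 0.0778 once Tet2 WT replicate 1 was left out, 0.0508 for Tet2 WT replicate 3 and 0.0504 for Tet2 KO replicate 3, and ran from 6.12e-07 to 0.0778 over 11 alternatives.

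Of the 23 that fell, Wnt11-202 kept its call in all alternatives. Wnt11 encodes a Wnt ligand, and Wnt11-202 had 64.8, 91.9 and 121 counts in Tet2 KO against 615, 475 and 606 in Tet2 WT (-2.43 ± 0.26, edgeR adjusted p = 0.00642, and at most 0.0360 in 11 alternatives). Its share was 26.6%, 48.2% and 26.4% against 37.4%, 35.2% and 37.7%, which overlapped. Bmp1-205, from a procollagen protease gene, fell by 2.82 and its gene by 2.53. Col16a1-209, from a collagen gene, fell by 2.08 and its gene by 2.04. Vldlr-201, from a lipoprotein receptor gene, fell by 2.82 at 29.4% to 52.1% of the gene in Tet2 KO and 32.3% to 47.5% in Tet2 WT. In 12 of the 23 no Tet2 KO library reached 3 counts, so no fold is given, and each of these had passed the count rule through Tet2 WT only: Eln-203, from the elastin gene, had 38.7, 30.2 and 101 counts in Tet2 WT, and Cilp-202, from a cartilage matrix gene, had 79.4, 26.1 and 66.5. The summed fibroblast, endothelial and pericyte marker values given above are lower in the same libraries, and their part in these falls was not tested.

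Sft2d2-202 and Wnt11-202 kept their abundance calls in all 11 alternatives, as did Rpe-205, whose direction the count rule had fixed, and each of the other 36 lost it in 3 to 9 of them. A few members were called where their gene was not called or was called in the opposite direction. Antxr1 encodes a collagen-binding receptor, and its total fell by 2.65 on the log2 scale (edgeR adjusted p = 0.000169). Antxr1-202 had 48.8, 23.4 and 81.5 counts in Tet2 KO and 0 in every Tet2 WT library, and made up 37.04%, 9.31% and 23.6% against 0% of the gene. Fas encodes a death receptor, and Fas-204 had 24.4, 70.2 and 41.5 counts against 225, 164 and 259 (-2.10 ± 0.40, edgeR adjusted p = 0.0376). The total of its gene had the same direction, at -0.54 ± 0.17, and was not called (edgeR adjusted p = 0.0585). The share of Fas-204 was 3.19%, 7.26% and 3.07% against 15.1%, 9.23% and 14.7% (limma adjusted p = 0.433). Puf60-204, from the gene of a splicing factor, had 97.3, 38.4 and 31.3 counts against 0 in each Tet2 WT library, at no more than 1.24% of the gene. Pum2-207, from the gene of a repressor of translation, had 0 counts in each Tet2 KO library against 34.4, 49.9 and 66.8. On the share, the limma adjusted p was 0.220 for Puf60-204 and 0.386 for Pum2-207. Antxr1-202, Puf60-204 and Pum2-207 passed the count rule through 1 genotype only, as Rpe-205 did. The count of 39 (1.34%, beside 3.41% of all transcripts) fell to 3, 18 and 7 when Tet2 WT replicate 1, 2 or 3 was left out. These were 0.103%, 0.62% and 0.241%, beside 1.12%, 2.54% and 1.22% of all transcripts. It was 15 and 21 for Tet2 KO replicates 1 and 3 (0.517% and 0.724%, beside 2.18% and 2.01%). For Tet2 KO replicate 2 it was 52 (1.79% beside 3.83%).

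The count rule has a sharp edge. Gtf2i-214 (25.9, 25.02 and 20.03 counts in Tet2 WT, 5.20 to 9.15 in Tet2 KO), Serpinb13-202 and 6430550D23Rik-203 were the members nearest to it, with the third highest count between 20 and 20.03. Just outside lay Dop1a-214, Nop56-210 and Dnajc18-202, each with 19.98 or 19.97. Of all members, 18 had 20 counts in 3 Tet2 KO and 0 Tet2 WT libraries, 55 in 3 Tet2 WT and 0 Tet2 KO libraries, and 1836 in all 6.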

How the data were processed

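RNA-seq of sorted cardiac macrophages gave 6 libraries, 3 labelled Tet2 KO and 3 labelled Tet2 WT. The authors deposited estimated counts per transcript and TPM values, per the file headers, as kallisto writes them. Trim Galore 0.6.4, kallisto 0.44.0 and GRCm38 are named in the submitters' processing notes, and no source used here names the transcript annotation release. Of 118783 listed transcripts, 116710 (98.3%) matched a GENCODE M21 transcript after the version was removed, and the remaining 2073 held at most 0.613% of a library's counts.

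A member's share was its TPM over the summed TPM of its gene. Shares were tested with limma 3.58.1 on log2((TPM + 0.1) / (rest of the gene + 0.1)) over all 43475 transcripts with at least 20 counts in 3 libraries and another transcript in the gene, which left out 27 members. Because of the 0.1 TPM added to both sides, the log2 difference understates or can turn that of low transcripts. Rounded estimated counts of 45452 transcripts and of 16406 genes were tested with edgeR 4.0.16 (quasi-likelihood, TMM), in R 4.3.3, with Benjamini-Hochberg adjustment and a threshold of 0.05. Alternatives used other pseudocounts, filters, denominators, scalings, DESeq2 1.42.0, a replicate block and the omission of each library. Of 50 transcripts each simulated with 2-, 4-, 8- and 16-fold changes, the share test called 0%, 6%, 66% and 88%, with 9 false among 136 calls. Calls on other transcripts of a changed gene were not counted as false there. The abundance test called 10%, 60%, 88% and 98%, with 21 false among 149. The changed transcripts were of any type with 20 counts in all 6 libraries, as 1836 of the 2901 members had. For the other members these rates may be too high.

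The members and gene lists were chosen with earlier results of these data known. Named members were those called on the share, filled to 6 in each direction by smallest p among members with a share of at least 5%, a gene of at least 2 TPM in every library and no overlap of the groups. Further named members were the 6 of highest TPM, the 4 of highest share, 6 of splicing regulators, all of machinery genes, 4 of macrophage genes and those nearest to the count rule, of which 1 of high TPM is not reported here.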

Additional observations from a re-analysis of the deposited data

How the results depend on the processing

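The share test called 2 members (0.0696%, beside 0.0621% of all transcripts). The number was 26 with a pseudocount of 1 TPM (0.905% beside 1.02%) and 5 on shares of estimated counts (0.174% beside 0.14%). It was 7 with the edgeR usage test (0.247% beside 0.338%). With 20 counts asked in all 6 libraries it was 1 (0.0549% beside 0.00328%), the only call among all transcripts. With no count filter it was 0, as for all transcripts. Of the 13 named for their shares, 2 were called, against 1 with a pseudocount of 0.01 TPM, 6 with 1 TPM, 0 with no count filter and 1 with 20 counts in all libraries. Both numbers were 0 to 0 with each library left out. On abundance 39 were called (1.34%, beside 3.41% of all transcripts). DESeq2 called 139 (72 higher, 67 lower), 4.79% beside 9.73%. Limma on log2(TPM + 1) called 67 (16 higher, 51 lower), 2.31% beside 5.58%. With each library left out 3 to 52 were called, 0.103% to 1.79% beside 1.12% to 3.83%. Called host genes numbered 333, and 169 without Tet2 WT replicate 1, 199 without Tet2 KO replicate 3 and 455 without Tet2 KO replicate 2. In that order these were 14.9%, 7.55%, 8.9% and 20.3%, beside 16.2%, 8.84%, 10.9% and 19.3% of all genes. Machinery genes called were 0, against 3 with DESeq2 (8.82%, beside 21.1% of all genes) and 1 with no low-count filter (2.94% beside 10.7%). With each library left out they were 0 to 1, the 1 without Tet2 KO replicate 1 (2.94% beside 13%). The summed TPM gap of 0.181 percentage points was 0.0600 without the 5 members of highest TPM and 0.125 to 0.223 with each library left out. None of the 13 share differences or the 39 abundance differences changed its sign in the alternatives run. All but Gm49322-202 of the 13 were chosen for shares without overlap. The 39 were chosen by their calls, and the count rule fixed the direction of 15. A kept sign was thus largely set in advance and is no support. The difference in mean share changed sign in at least 1 alternative for 7 of the 24 members named for their level or list. The cause of these shifts was not tested.

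With the replicate number as a block, 0 members, and 0 of the 13 named, were called on the share, where 0 of all transcripts were called. On abundance the block left 8 members called (0.276%, beside 1.43% of all transcripts). It called 1 machinery gene (2.94%, beside 14.3% of all genes). Deviations of same-numbered libraries correlated at 0.0599, 0.129 and 0.0419, so not every pair passed 0.1 and the labels share only a number. Each library correlated best with its own number, as a hint from the data. In the simulated runs the share test called 0% of the transcripts at 2-fold, 6% at 4-fold and 66% at 8-fold, with 3 libraries a group. Folds between these were not tested.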
